A study of Mus musculus with 12 samples.

Results

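A set of 10 genes of bile acid synthesis, transport and control was followed in mouse liver: the synthesis enzymes Cyp7a1, Cyp8b1, Cyp27a1 and Cyp7b1, the canalicular exporters Abcb11 and Abcb4, the uptake carriers Slc10a1 and Slco1b2, and the nuclear receptors Nr1h4 and Nr0b2. The set was a list of symbols, chosen with earlier results of these data known, and each symbol was matched to its mouse Ensembl identifier. All 10 of the 10 genes had values, out of 22381 genes that were not at exactly 0 in every library, and all 10 passed the expression filter of the test. The series holds 12 RNA sequencing libraries of whole liver from female C57BL/6 mice, an inbred strain, in 4 groups of 3. In the HFHS group, a diet rich in fat and sugar was given for 14 weeks to bring on steatohepatitis, that is, fatty liver with inflammation. The curcumin group had the same diet with intravenous liposomes carrying curcumin, a plant polyphenol, at weeks 12 and 13, and the calcitriol group had the diet with liposomes carrying calcitriol, the active hormone of vitamin D, at the same weeks, with livers collected 2 weeks after the first dose. The last group is titled CNT. Its labels carry the same 14-week diet text as the others, so the sources used here do not state how CNT mice differed, and CNT is used here as a name only. Livers exposed to liposomes without an agent were not analysed here, so effects of the injection or the carrier cannot be told apart from those of curcumin or calcitriol. The labels do not state that the 3 libraries of a group came from different mice, and p-values therefore reflect library-to-library spread, which may be technical.

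Bile acids are made from cholesterol in hepatocytes. Cyp7a1 opens the main (classical) route, Cyp8b1 directs it toward cholic acid, and Cyp27a1 and Cyp7b1 act in the alternative route. Slc10a1 and Slco1b2 bring bile acids back from portal blood, Abcb11 pumps them into bile, and Abcb4 moves phosphatidylcholine into bile, where it shields the ducts from the detergent action of bile salts. The bile acid receptor FXR, encoded by Nr1h4, is known to raise Abcb11 and Nr0b2, and the Nr0b2 product, SHP, is a corepressor known to lower Cyp7a1 and Cyp8b1.

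The values are log2 expression levels made by the authors, and no counts were used here, which leaves sequencing depth unknown. Markers of hepatocytes were abundant in all libraries: the summed level of the 9 measured markers (log2 of the sum) was 21.00 to 21.17 in CNT, 20.72 to 20.99 in HFHS, 20.91 to 21.20 with curcumin and 20.55 to 20.96 with calcitriol. HFHS replicates 1 and 3 were set off along principal component 1, with scores of -32.8 and -28.4, while HFHS replicate 2 was at 3.1 and the remaining 9 libraries lay between 0.4 and 14.4. The stellate and fibroblast marker sum, over 10 markers, was 13.75 and 13.62 in those libraries, 12.69 in HFHS replicate 2, 12.39 to 12.67 in CNT, 12.81 to 12.90 with curcumin and 12.68 to 12.79 with calcitriol. The periportal hepatocyte sum over 8 markers was lower in HFHS (16.49 to 17.27) than in CNT (17.42 to 17.72), and 5 of the 8 fell (limma, adjusted p under 0.05, where 5.36% of tested genes fell). In the same comparison 5 of the 10 stellate and fibroblast markers and 3 of 10 macrophage markers rose, where 6.55% of tested genes rose, and 1 of 9 hepatocyte markers fell. The periportal sum was 16.99 to 17.11 with curcumin and 17.07 to 17.33 with calcitriol. The pericentral hepatocyte sum over 8 markers was 17.65 to 17.90 with curcumin, above the 16.74 to 17.60 of the other 9 libraries. Its largest part was Cyp2e1, at 17.24 to 17.57 with curcumin, with Glul next at 14.39 to 14.50. With curcumin, 0 of the 8 passed against CNT or HFHS (limma, adjusted p under 0.05), where 3.51% and 0.301% of tested genes did. The median log2 change of the 8 was 0.06 against CNT and 0.18 against HFHS. Macrophage markers, 10 in all, summed to 12.77 to 13.16 in CNT, 13.13 to 13.81 in HFHS, 13.16 to 13.48 with curcumin and 13.42 to 13.80 with calcitriol, and endothelial markers, 8 in all, to 11.47 to 12.27 over all libraries. The erythroid sum over 6 markers was 13.39 to 13.74 in the curcumin and calcitriol libraries and 12.01 to 13.11 in the other 6. The 10 cholangiocyte markers summed to 10.42 to 11.90 in HFHS and 10.23 to 10.76 in CNT, with 4 of the 10 below log2 of 10, or 3.32, in all libraries. The adipocyte sum over 6 markers was 10.24 in HFHS replicate 3 and at most 7.41 elsewhere. The part of these markers in the results was not tested, and in whole tissue fewer cells of a type and less RNA per cell cannot be told apart. Because HFHS replicates 1 and 3 stand apart from HFHS replicate 2, comparisons with HFHS are also given without them or without replicate 2.

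Abcb11, the bile salt export pump, fell below CNT in all 3 other groups: it was lower in HFHS, with curcumin and with calcitriol, to 0.746, 0.552 and 0.662 times its CNT level. Nr0b2 fell with curcumin to 0.524 times its CNT level. Cyp27a1 and Nr1h4 were lower in HFHS livers than in CNT, and Cyp27a1 also with calcitriol. Cyp7a1 passed in none of the 6 comparisons. Of the 10 genes, 3 fell between HFHS and CNT (limma, adjusted p under 0.05), where 5.36% of the 12637 tested genes fell. With curcumin against CNT 2 of 10 fell, where 1.91% of tested genes did, and with calcitriol against CNT 2 of 10 fell, where 2.27% did. No member rose in these comparisons (6.55%, 1.60% and 1.77% of tested genes rose). Against HFHS, 0 of 10 passed with curcumin (limma; 0.301% of tested genes passed) and 0 of 10 with calcitriol (limma; 2.21% passed). With a replicate block these counts were 3 and 1 of 10, where 242 and 280 of the 12637 tested genes passed. At an unadjusted p under 0.05, 6 and 2 of the 10 passed in these 2 comparisons, against 24.7% and 21.3% of tested genes. At the same unadjusted level 5 of 10 passed in HFHS, 3 with curcumin and 3 with calcitriol against CNT (31.9%, 18.6% and 23.4% of tested genes). Without overlap between the groups were 4 of 10 in each of these 3 comparisons (26.9%, 25.6% and 32.3% of tested genes), 5 with curcumin against HFHS (23.6%) and 2 with calcitriol against HFHS (24.4%). The shares without overlap were near or above the background in the first 4 and near it in the last. The comparisons with CNT share the CNT libraries, and those with HFHS share the HFHS libraries. HFHS against CNT and the treatments against HFHS use the HFHS libraries with opposite sign, so opposite changes there are not independent.

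**Figure D1:**
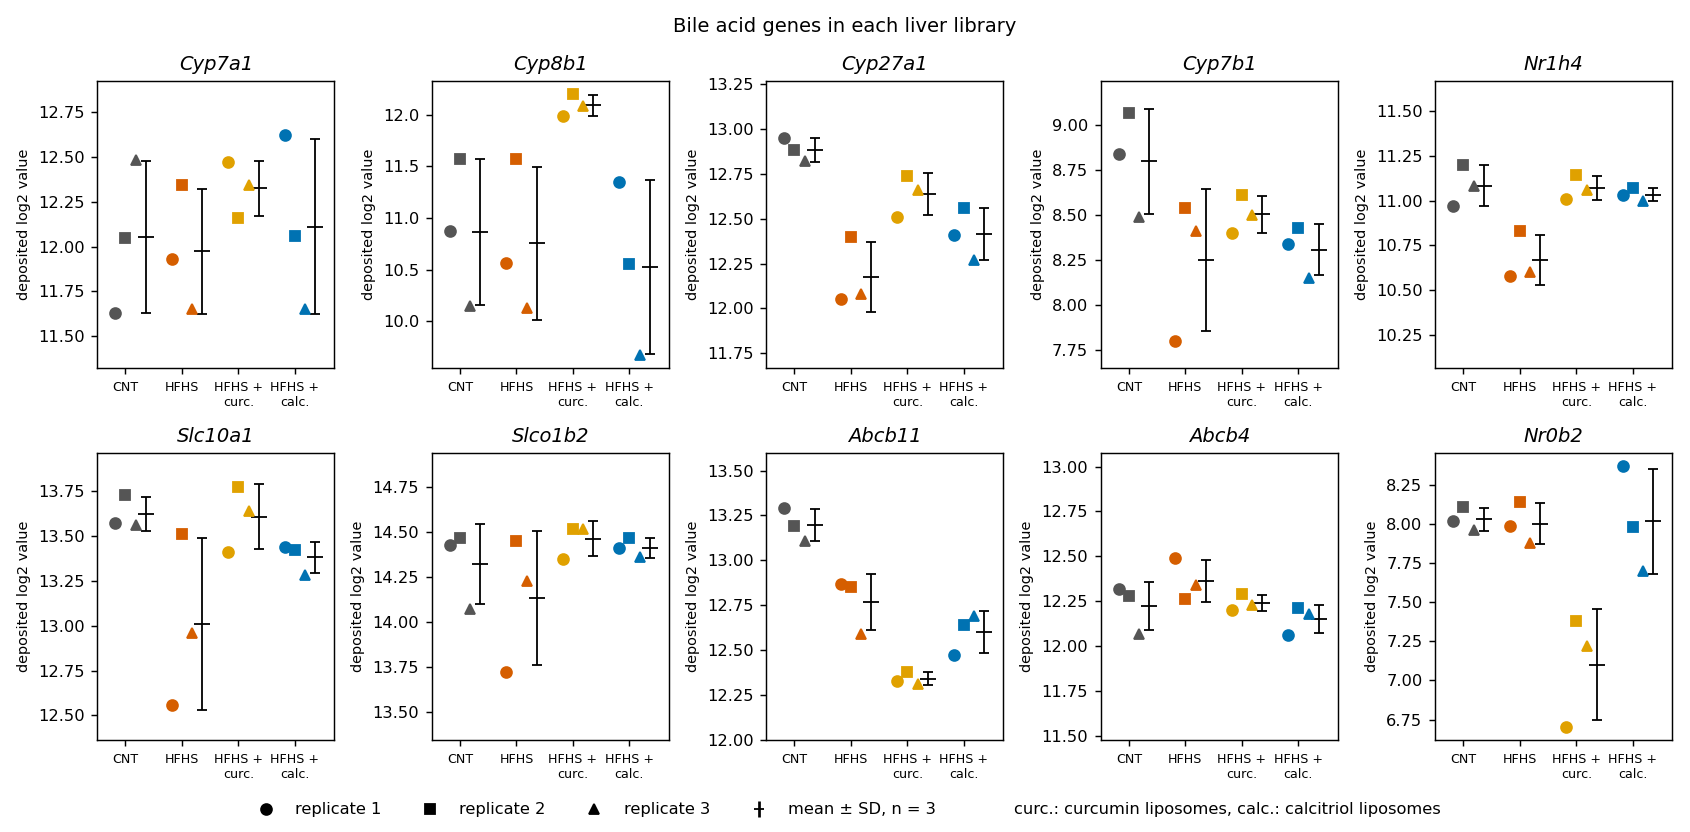
Deposited log2 value of each of the 10 genes (y axis, scaled per gene) in the 12 libraries, by group (x axis); symbols mark the replicate number and black bars the mean ± SD of 3 libraries. Abcb11 lies between 13.11 and 13.29 in CNT and below 12.88 in all 9 other libraries, and Nr0b2 and Cyp8b1 set the 3 curcumin libraries apart.

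Nr0b2, Abcb11 and Cyp8b1 are shown with the 250 bases before their transcription start, because their levels set curcumin livers apart from the other groups: the first and second were lowest there and the last highest. The sequences are from RefSeq on GRCm38.p6, which had promoters for 8 of the 10 genes, and read 5′ to 3′ on the gene's strand. Capitals mark matches, on either strand, to 4 sets of letters: AGGTCA (on the opposite strand TGACCT), the hexamer bound by FXR and many other nuclear receptors, TCAAGG and CCAAGG, cores of the element bound by LRH-1 (the Nr5a2 product), and CAAAGTCCA, an element bound by HNF4A. Of 32851 mouse promoter windows of this length, 14.0% hold AGGTCA, 12.5% TCAAGG, 18.2% CCAAGG and 0.4% CAAAGTCCA on either strand. These windows do not cover every chromosome, and a gene can have several.
Nr0b2, chr4:133553126-133553375, plus strand: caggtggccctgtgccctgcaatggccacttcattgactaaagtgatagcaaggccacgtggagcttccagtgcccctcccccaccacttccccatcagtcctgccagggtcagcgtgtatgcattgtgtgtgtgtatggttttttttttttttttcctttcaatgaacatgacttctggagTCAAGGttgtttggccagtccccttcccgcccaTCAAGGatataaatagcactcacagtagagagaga
Abcb11, chr2:69342617-69342866, minus strand: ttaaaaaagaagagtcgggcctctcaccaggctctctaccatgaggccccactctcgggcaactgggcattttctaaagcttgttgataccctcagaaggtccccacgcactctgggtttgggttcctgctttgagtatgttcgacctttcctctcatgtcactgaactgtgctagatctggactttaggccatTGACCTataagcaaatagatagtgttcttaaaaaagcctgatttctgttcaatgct
Cyp8b1, chr9:121916306-121916555, minus strand: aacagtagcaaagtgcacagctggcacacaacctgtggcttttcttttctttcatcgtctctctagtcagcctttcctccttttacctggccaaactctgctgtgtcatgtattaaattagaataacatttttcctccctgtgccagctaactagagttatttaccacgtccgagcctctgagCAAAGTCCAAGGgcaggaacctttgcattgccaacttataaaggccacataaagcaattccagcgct
The Nr0b2 window holds TCAAGG at positions -68 to -63 and -35 to -30, counted back from the start site. Abcb11 has a match to AGGTCA on the opposite strand at -56 to -51. In Cyp8b1 CAAAGTCCA at -67 to -59 overlaps CCAAGG at -61 to -56. Of the members not shown, Slco1b2, Nr1h4 and Slc10a1 also hold AGGTCA, and Slc10a1 holds CCAAGG, on either strand. Cyp27a1 and Abcb4 hold no match. A match is a description of letters and shows no binding.

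Nr1h4 (ENSMUSG00000047638, GRCm38 chromosome 10, 89454234 to 89533585, minus strand) encodes the bile acid receptor itself. Its log2 level was 10.97, 11.20 and 11.08 in CNT and 10.58, 10.83 and 10.60 in HFHS. It was 11.01, 11.14 and 11.06 with curcumin and 11.03, 11.07 and 11.00 with calcitriol. The 3 HFHS libraries were thus the lowest of the 12, below every library of the other groups. Nr1h4 fell in HFHS against CNT by 0.41 ± 0.09 (log2 change ± SE, adjusted p = 0.0186 in limma), and the drop was 0.25 ± 0.11 (adjusted p = 0.41) without HFHS replicates 1 and 3. The call was also lost without HFHS replicate 1 (adjusted p = 0.0739), HFHS replicate 3 (0.0689) or CNT replicate 2 (0.0755). Against HFHS it was higher with curcumin by 0.40 ± 0.09 (adjusted p = 0.0539) and with calcitriol by 0.36 ± 0.09 (adjusted p = 0.055), neither of which passed. With a replicate block both passed, at 0.40 ± 0.07 (adjusted p = 0.0355) for curcumin and 0.36 ± 0.07 (0.0346) for calcitriol. Under quantile normalization the calcitriol difference passed (0.33 ± 0.07, adjusted p = 0.0285) and the curcumin difference did not. Without HFHS replicate 2 both passed, at 0.48 ± 0.08 (adjusted p = 0.00172) and 0.44 ± 0.08 (0.00316). The difference from CNT was -0.01 (95% interval -0.20 to 0.18) with curcumin and -0.05 (-0.24 to 0.14) with calcitriol.

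Nr0b2 (ENSMUSG00000037583, chromosome 4, 133553376 to 133556536, plus strand), the corepressor gene, was lower with curcumin than in the libraries of all other groups. Its level was 6.70, 7.38 and 7.22 in the curcumin libraries. The other libraries read 8.02, 8.11 and 7.96 in CNT, 7.99, 8.14 and 7.88 in HFHS, and 8.37, 7.98 and 7.70 with calcitriol. Every curcumin library lay below every one of the other 9, while CNT, HFHS and calcitriol overlapped. Nr0b2 fell with curcumin against CNT by 0.93 ± 0.18 (adjusted p = 0.0202 in limma). Against HFHS the change was -0.90 ± 0.18 (adjusted p = 0.051), just outside the threshold, or adjusted p = 0.0474 with a replicate block, and against calcitriol -0.92 ± 0.18 (adjusted p = 0.169). The size was similar in these comparisons, while a smaller share of all genes passed in the comparisons with HFHS and calcitriol (0.301% and 0.0%) than in that with CNT (3.51%). The CNT comparison lost its call without CNT replicate 1 (adjusted p = 0.068), CNT replicate 2 (0.0823), curcumin replicate 1 (0.0566, change -0.73) or curcumin replicate 3 (0.0516). Over 14 other settings the change against HFHS ran from -1.04 to -0.70, with adjusted p from 0.0151 to 0.567, and it passed in 4. With calcitriol, Nr0b2 differed from HFHS by 0.02 (95% interval -0.38 to 0.41).

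Abcb11 (ENSMUSG00000027048, chromosome 2, 69238282 to 69342616, minus strand) shares 136 exonic bases with an antisense gene, Gm13613, listed at -3.55 to -3.51 in the 12 libraries. The counting is not stated to use strand, so reads from that stretch cannot be told apart. Abcb11 stood at 13.29, 13.19 and 13.11 in CNT, and at 12.87, 12.85 and 12.59 in HFHS. It stood at 12.33, 12.38 and 12.31 with curcumin and at 12.47, 12.64 and 12.69 with calcitriol. Every CNT library was above the other 9, and every curcumin library was below the other 9, while HFHS and calcitriol overlapped. Against CNT, Abcb11 fell by 0.42 ± 0.10 in HFHS (adjusted p = 0.0267 in limma), by 0.86 ± 0.10 with curcumin (adjusted p = 0.00162) and by 0.60 ± 0.10 with calcitriol (adjusted p = 0.0134). The curcumin difference from CNT passed in all 13 other settings (adjusted p 0.000442 to 0.0131, change -0.90 to -0.80) and the calcitriol difference in 11 of 13, all but those without CNT replicate 2 (0.0559) and without calcitriol replicate 2 (0.0521). The HFHS difference was less stable, with -0.16 ± 0.10 (adjusted p = 0.308) under quantile normalization and -0.34 ± 0.12 (adjusted p = 0.30) without HFHS replicates 1 and 3. It was also lost without HFHS replicate 1 (adjusted p = 0.057), HFHS replicate 3 (0.103), CNT replicate 1 (0.0787) or CNT replicate 2 (0.0847). Curcumin against HFHS gave -0.43 ± 0.10 (adjusted p = 0.071), and -0.39 ± 0.10 (adjusted p = 0.017) without HFHS replicate 2. Under quantile normalization it also passed, at -0.63 ± 0.10 (adjusted p = 0.032). Calcitriol against HFHS gave -0.17 ± 0.10 (adjusted p = 0.365), and curcumin against calcitriol -0.26 ± 0.10 (95% interval -0.49 to -0.04, adjusted p = 0.288).

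Abcb4 (ENSMUSG00000042476, chromosome 5, 8893717 to 8959231, plus strand), the phospholipid exporter that sits beside Abcb11 in the canalicular membrane, was the steadiest of the 10 genes. Its 12 values ran from 12.06 to 12.49, a range of 0.43. Group means were 12.22 ± 0.13 in CNT, 12.36 ± 0.11 in HFHS, 12.24 ± 0.05 with curcumin and 12.15 ± 0.08 with calcitriol (SD, n = 3 each). It passed in none of the 6 comparisons. Against CNT the differences were 0.14 in HFHS (95% interval -0.07 to 0.35), 0.01 with curcumin (-0.20 to 0.22) and -0.08 with calcitriol (-0.28 to 0.13). Under quantile normalization the HFHS value became 0.40 ± 0.11 (adjusted p = 0.0494), which passed.

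**Figure D2:**
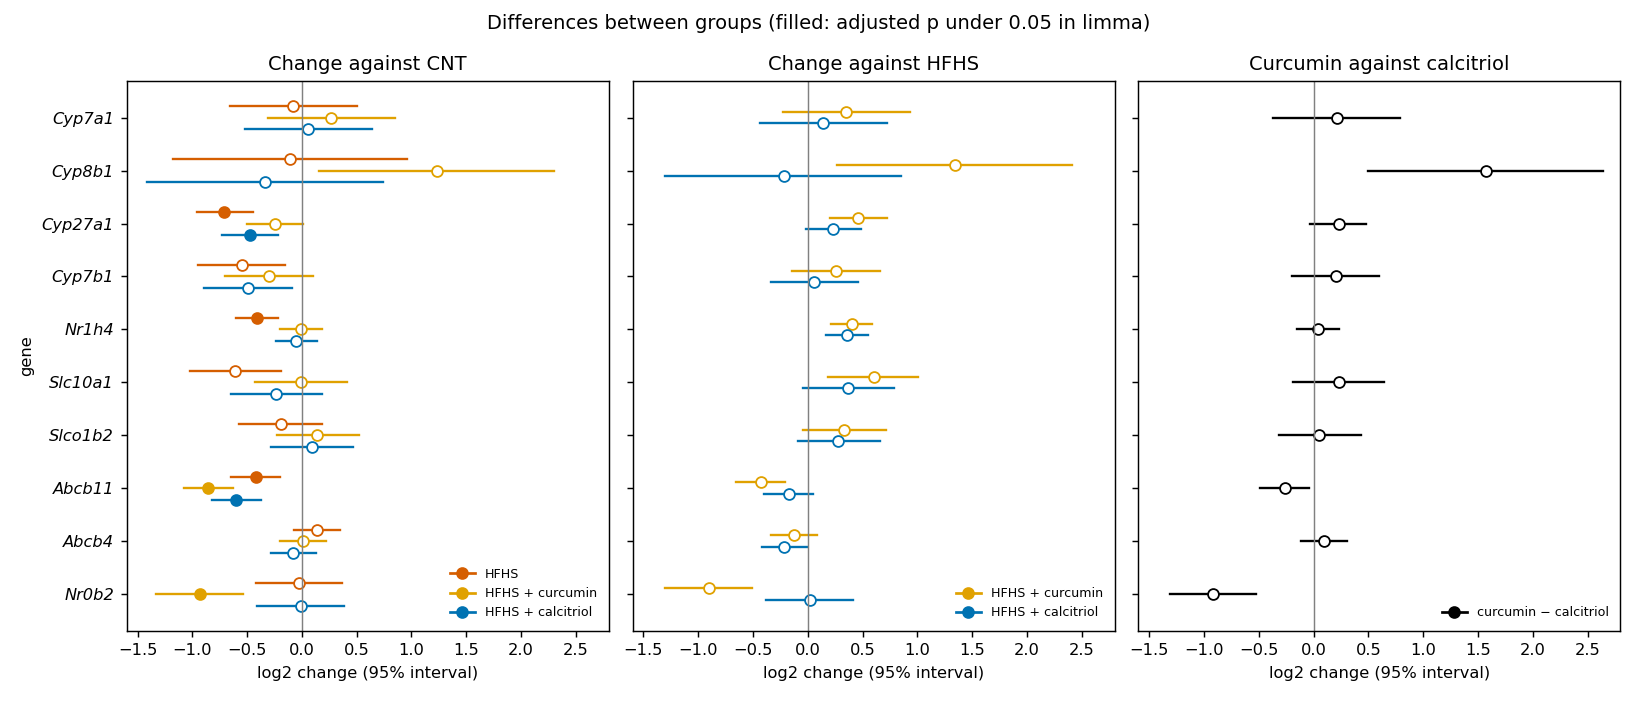
Log2 change (x axis) of each gene (y axis) with its 95% interval from limma: HFHS, curcumin and calcitriol against CNT (left), both treatments against HFHS (middle) and curcumin against calcitriol (right); filled points passed an adjusted p of 0.05. Filled points are found only in the left panel, where Abcb11 is filled in all 3 groups, from -0.42 to -0.86.

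Cyp7a1 (ENSMUSG00000028240, chromosome 4, 6265612 to 6275633, minus strand), the rate-limiting enzyme of the classical route, had group means of 11.97 to 12.32. Its SD was 0.16 with curcumin and 0.34 to 0.49 in the other groups. Its level was 11.63, 12.05 and 12.48 in CNT and 11.93, 12.34 and 11.65 in HFHS. It was 12.47, 12.16 and 12.34 with curcumin and 12.62, 12.06 and 11.65 with calcitriol. All groups overlapped. The differences from CNT were -0.08 (95% interval -0.66 to 0.50) in HFHS, 0.27 (-0.31 to 0.85) with curcumin and 0.06 (-0.52 to 0.64) with calcitriol, and a change within these bounds was not detectable here.

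Cyp8b1 (ENSMUSG00000050445, chromosome 9, 121914356 to 121916305, minus strand), the sterol 12-alpha-hydroxylase that leads to cholic acid, had the widest range of the set, 2.53 over the 12 libraries. The curcumin libraries read 11.99, 12.20 and 12.08. CNT read 10.87, 11.57 and 10.15, HFHS 10.56, 11.57 and 10.13, and calcitriol 11.35, 10.55 and 9.67. The 3 curcumin values were the highest of the 12 and lay within 0.21 of each other, while each other group spanned more than 1 log2 unit. The same 3 libraries had the highest pericentral marker sums (17.65 to 17.90), of which Cyp2e1 was the largest part (17.24 to 17.57). With curcumin against CNT, 0 of the 8 pericentral markers passed (limma; 3.51% of tested genes passed). The part of these markers in the levels of Cyp8b1 and Nr0b2 was not tested. Curcumin differed from HFHS by 1.34 ± 0.48 (adjusted p = 0.135), from CNT by 1.23 ± 0.48 (adjusted p = 0.209) and from calcitriol by 1.57 ± 0.48 (adjusted p = 0.244). None of these passed in limma, and all 3 of their 95% intervals lay above 0 (0.27 to 2.41, 0.16 to 2.30 and 0.50 to 2.64). Without HFHS replicate 2, curcumin against HFHS passed at 1.75 ± 0.51 (adjusted p = 0.0391). Without HFHS replicates 1 and 3 it was 0.52 (adjusted p = 0.999).

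**Figure D3:**
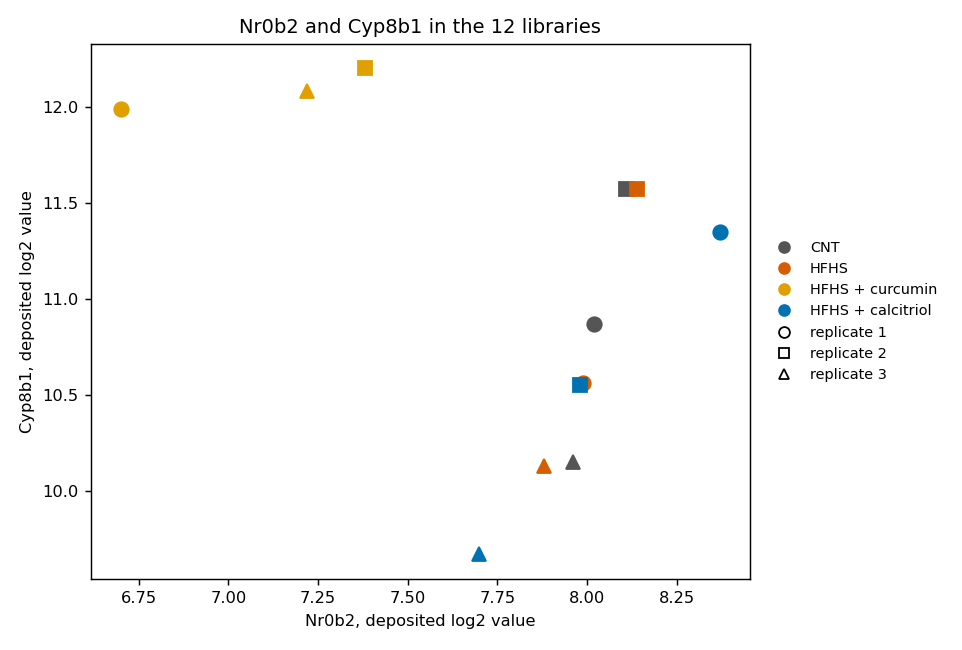
Log2 level of Nr0b2 (x axis) against Cyp8b1 (y axis), one point per library, with colour for the group and shape for the replicate number. The 3 curcumin libraries lie apart at low Nr0b2 (6.70 to 7.38) and high Cyp8b1 (11.99 to 12.20), and the other 9 lie at Nr0b2 of 7.70 to 8.37. Each gene alone sets the curcumin libraries apart.

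Set side by side within each library, Cyp8b1 exceeded Nr0b2 by 4.83 to 5.29 log2 units with curcumin and by 1.97 to 3.45 in the other 9 libraries. Among those 9, the lowest Cyp8b1 (9.67) was in the library with the lowest Nr0b2 (7.70, calcitriol replicate 3). Among the curcumin libraries, too, the lowest Cyp8b1 (11.99) was in the library with the lowest Nr0b2 (6.70). Pearson's r between these genes was -0.43 over all libraries and 0.69 within groups, after group means were removed. The low Nr0b2 and high Cyp8b1 with curcumin were thus a difference between groups, and within groups the levels ran in the same direction. Each of the 2 genes alone sets the curcumin libraries apart, so the separation by their difference follows from the single levels and adds no further evidence. The difference is a description and was not tested.

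Cyp27a1 (ENSMUSG00000026170, chromosome 1, 74713574 to 74737892, plus strand), the mitochondrial sterol 27-hydroxylase of the alternative route, was highest in CNT, at 12.95, 12.88 and 12.82. It was 12.05, 12.40 and 12.08 in HFHS, 12.51, 12.74 and 12.66 with curcumin, and 12.41, 12.56 and 12.27 with calcitriol. All CNT libraries were above all others, HFHS lay below curcumin, and the calcitriol group overlapped both. Cyp27a1 fell in HFHS by 0.71 ± 0.12 (adjusted p = 0.0104 in limma), to 0.613 times CNT. It passed in 12 of 14 other settings. The exceptions were the fit with only these 2 groups (adjusted p = 0.11) and that without HFHS replicates 1 and 3 (-0.48 ± 0.14, adjusted p = 0.207). With calcitriol it fell against CNT by 0.47 ± 0.12 (adjusted p = 0.0462), a call lost when any library of either group was left out (adjusted p 0.0562 to 0.168) and under median centring (0.0551), no filter (0.0603) and quantile normalization (0.0555, change -0.31). Curcumin against CNT gave -0.25 ± 0.12 (adjusted p = 0.29) and curcumin against HFHS 0.46 ± 0.12 (adjusted p = 0.0724), which passed with a replicate block (adjusted p = 0.0474) and without HFHS replicate 2 (0.57 ± 0.10, adjusted p = 0.00246). Calcitriol against HFHS gave 0.23 ± 0.12 (adjusted p = 0.275), or 0.35 ± 0.10 (adjusted p = 0.0371) without HFHS replicate 2.

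Cyp7b1 (ENSMUSG00000039519, chromosome 3, 18071950 to 18243338, minus strand), the oxysterol 7-alpha-hydroxylase that follows Cyp27a1, read 8.84, 9.07 and 8.49 in CNT and 7.80, 8.54 and 8.41 in HFHS. With curcumin it read 8.40, 8.61 and 8.50, and with calcitriol 8.34, 8.43 and 8.15. The lowest value was HFHS replicate 1, and HFHS overlapped every other group. The difference between HFHS and CNT was -0.55 ± 0.18 (adjusted p = 0.0671) and passed without HFHS replicate 2, at -0.70 ± 0.19 (adjusted p = 0.0189). It also passed with a replicate block (adjusted p = 0.0391) and without CNT replicate 3 (0.0401). Calcitriol against CNT gave -0.49 ± 0.18 (adjusted p = 0.137), with no overlap between these groups, and curcumin against CNT gave -0.30 ± 0.18 (adjusted p = 0.422).

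Slc10a1 (ENSMUSG00000021135, chromosome 12, 80953183 to 80968705, minus strand), which encodes the sodium-dependent carrier NTCP, stood at 13.57, 13.73 and 13.56 in CNT. In HFHS it stood at 12.56, 13.51 and 12.96, so HFHS replicates 1 and 3 were the lowest of the 12 libraries. Curcumin livers had 13.41, 13.77 and 13.64, and calcitriol livers 13.44, 13.42 and 13.28. HFHS against CNT gave -0.61 ± 0.19 (adjusted p = 0.0564), although the groups did not overlap, as for 26.9% of tested genes. With a replicate block it passed (-0.61 ± 0.16, adjusted p = 0.0301). The difference was -0.86 ± 0.13 (adjusted p = 0.000713) without HFHS replicate 2 and -0.11 (adjusted p = 0.845) without HFHS replicates 1 and 3. Curcumin against HFHS gave 0.60 ± 0.19 (adjusted p = 0.107), and 0.85 ± 0.13 (adjusted p = 0.00122) without HFHS replicate 2. Calcitriol against HFHS gave 0.37 ± 0.19 (adjusted p = 0.286), and 0.62 ± 0.13 (adjusted p = 0.00804) without that library.

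Slco1b2 (ENSMUSG00000030236, chromosome 6, 141629518 to 141686646, plus strand), a sodium-independent organic anion carrier, passed in none of the 6 comparisons. Its group means were 14.32 ± 0.22 in CNT, 14.13 ± 0.38 in HFHS, 14.46 ± 0.10 with curcumin and 14.41 ± 0.05 with calcitriol (SD, n = 3 each). HFHS replicate 1 was the lowest library at 13.72, and the others ran from 14.07 to 14.52. Curcumin against HFHS gave 0.33 ± 0.17 (adjusted p = 0.248), and 0.49 ± 0.16 (adjusted p = 0.0373) without HFHS replicate 2.

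The export and uptake genes could be set against each other within a library. Abcb11 was below Slc10a1 by 1.08 to 1.39 log2 units with curcumin and by 0.59 to 0.97 with calcitriol. In CNT it was below by 0.28 to 0.54, and in HFHS the difference, Abcb11 minus Slc10a1, was 0.31, -0.66 and -0.36. The curcumin libraries had the lowest 3 of these 12 differences, which were not tested. Another difference, Cyp8b1 minus Cyp7a1, did not set curcumin apart. It was -0.48, 0.05 and -0.26 with curcumin and ran from -2.33 to -0.48 in the other libraries.

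Per kilobase of annotated exon, the mean log2 level over the 12 libraries was highest for the carriers Slc10a1 (12.27) and Slco1b2 (12.03). Cyp27a1 (11.41), Abcb11 (10.36), Cyp8b1 (10.09), Cyp7a1 (10.05) and Nr1h4 (9.76) followed. Abcb4 (9.01), Nr0b2 (7.61) and Cyp7b1 (7.35) were the lowest. The length used counts all annotated exons of a gene together, 9383 bases for Abcb4. Before division by length Abcb4 averaged 12.24, above Cyp7a1 (12.11), Cyp8b1 (11.06) and Nr1h4 (10.96), so its place depends on this length. Abcb11, Cyp8b1 and Cyp7a1 lay within 0.31 of each other, with pooled SDs within groups of 0.11, 0.66 and 0.38. Slc10a1 and Slco1b2 lay 0.24 apart, with SDs of 0.26 and 0.22. These SDs describe the spread of single libraries, and the order of the genes was not tested.

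Other genes of bile acid handling were read from a wider list of 50, chosen with earlier results of these data known: 18 of synthesis and conjugation, 14 of transport and 18 of regulation. Fgf15, the intestinal hormone that signals to liver, was listed at 0 in all libraries, and 45 of the 49 others were tested. Vdr, the calcitriol receptor, was among those not tested, at -0.72 to -0.66 in all 12 libraries. Between HFHS and CNT, 6 of the 45 fell and 0 rose (limma, adjusted p under 0.05; over all tested genes 5.36% fell and 6.55% rose). The median log2 change was -0.19 for synthesis (17 genes), 0.03 for transport (13) and -0.20 for regulation (15), against -0.01 for all tested genes. All 15 regulators were below 0, as were 6580 of all 12637 tested genes. The counts of calls moved with those over all tested genes, of which 1505 passed with every library and 3717 without HFHS replicate 2. Without HFHS replicate 1, HFHS replicate 3, CNT replicate 1 or CNT replicate 2, 216, 269, 538 and 135 passed. In the wider list the 6 calls became 15 without HFHS replicate 2, and 3, 2, 3 and 1 without the others, in the same order. Without HFHS replicates 1 and 3, 1 call was left.

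Synthesis genes that fell in HFHS were Cyp2c70, the enzyme that makes muricholic acids in mice, Cyp39a1, an oxysterol 7-alpha-hydroxylase, and Slc27a5, the bile acyl-CoA synthetase needed for conjugation. Cyp2c70 averaged 13.02 in CNT and 12.24 in HFHS (change -0.78 ± 0.12, adjusted p = 0.00695). Its CNT libraries, at 13.08, 12.91 and 13.08, were above the other 9. Cyp39a1 changed by -0.70 ± 0.14 (adjusted p = 0.0148) and Slc27a5 by -0.71 ± 0.17 (adjusted p = 0.0246). The regulators that fell were Fgfr4 (-0.55 ± 0.11, adjusted p = 0.0161) and Klb (-0.37 ± 0.10, adjusted p = 0.033), receptor and coreceptor for FGF15, and Nr5a2 (-0.32 ± 0.08, adjusted p = 0.0275), which encodes LRH-1. No transport gene passed. The smallest p there was that of Slco1a1, an organic anion carrier, with 8.79 to 10.11 in CNT and 6.20 to 7.73 in HFHS (change -2.88 ± 0.84, adjusted p = 0.0562). Members of the Slco1a and Cyp2c families resemble each other in sequence, and how shared reads were counted is not given in the sources used here.

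With curcumin against HFHS, 0 of the 45 passed in limma (0.301% of tested genes passed), and 14 of 45 had an unadjusted p under 0.05 (24.7% of tested genes). With a replicate block 1 of the 45 passed. Synthesis genes had a median of 0.27, with 16 of 17 above 0, regulators 0.16, with 14 of 15 above 0, and transport genes -0.10, where the median over all genes was 0.00. Of all 12637 tested genes, 6223 were above 0. The smallest p in each list belonged to Cyp39a1 (0.54 ± 0.14, adjusted p = 0.0724), Foxa2, a hepatocyte transcription factor (0.41 ± 0.10, adjusted p = 0.0724), and Abcc4, a basolateral exporter (-0.53 ± 0.21, adjusted p = 0.154). Without HFHS replicate 2, calls over all tested genes rose from 38 to 3207, and 16 of the 45 passed. Without HFHS replicates 1 and 3, 0 did.

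Against CNT, curcumin livers had 1 of 45 higher and 3 lower in limma, where 1.60% of tested genes rose and 1.91% fell. Scp2, a sterol carrier protein that takes part in side-chain shortening, rose by 0.51 ± 0.12 (adjusted p = 0.0351). Cyp2c70 fell by 0.79 ± 0.12 (adjusted p = 0.00516), Fgfr4 by 0.48 ± 0.11 (adjusted p = 0.0349) and Klb by 0.42 ± 0.10 (adjusted p = 0.0366). Leaving out CNT replicate 1 or 2, or any curcumin library, left 1 of the 4 calls. Calls over all tested genes fell from 443 to between 94 and 160 in these settings. The curcumin difference from HFHS was -0.01 ± 0.12 for Cyp2c70, 0.07 ± 0.11 for Fgfr4 and -0.05 ± 0.10 for Klb. In the transport list the smallest p was that of Abcc2, the canalicular exporter of conjugates (-0.44 ± 0.17, adjusted p = 0.186).

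With calcitriol against HFHS, 1 of the 45 rose and 1 fell in limma, where 0.973% of tested genes rose and 1.23% fell. Cyp39a1 rose by 0.66 ± 0.14 (adjusted p = 0.0368), to a mean of 10.32 beside 9.65 in HFHS and 10.36 in CNT. Ephx1, microsomal epoxide hydrolase, fell by 0.62 ± 0.14 (adjusted p = 0.0473), with 11.68, 11.88 and 11.38 under calcitriol and 12.02 to 12.56 in the other 9 libraries. Both calls were lost without HFHS replicate 1, HFHS replicate 3, calcitriol replicate 2 or calcitriol replicate 3, and 1 remained without calcitriol replicate 1. Without HFHS replicate 2, calls over all tested genes rose from 279 to 2194, and there were 10 calls in the wider list. All 15 regulators had changes above 0, with a median of 0.21, led by Nr1i3, which encodes the xenobiotic receptor CAR (0.68 ± 0.25, adjusted p = 0.152). Synthesis genes had a median of 0.15 and transport genes -0.08. Of all 12637 tested genes, 6253 were above 0. Changes against HFHS, with either treatment, use the same HFHS libraries as HFHS against CNT with opposite sign and are not independent of it. Against CNT, 0 of the 45 passed with calcitriol (limma; 4.04% of tested genes passed), and 7 of 45 had an unadjusted p under 0.05, as did 23.4% of tested genes. The smallest p in the synthesis list was that of Cyp2c70 (-0.40 ± 0.12, adjusted p = 0.0705), in the transport list that of Ephx1 (-0.43 ± 0.14, adjusted p = 0.104) and in the regulation list that of Klb (-0.23 ± 0.10, adjusted p = 0.181).

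**Figure D4:**
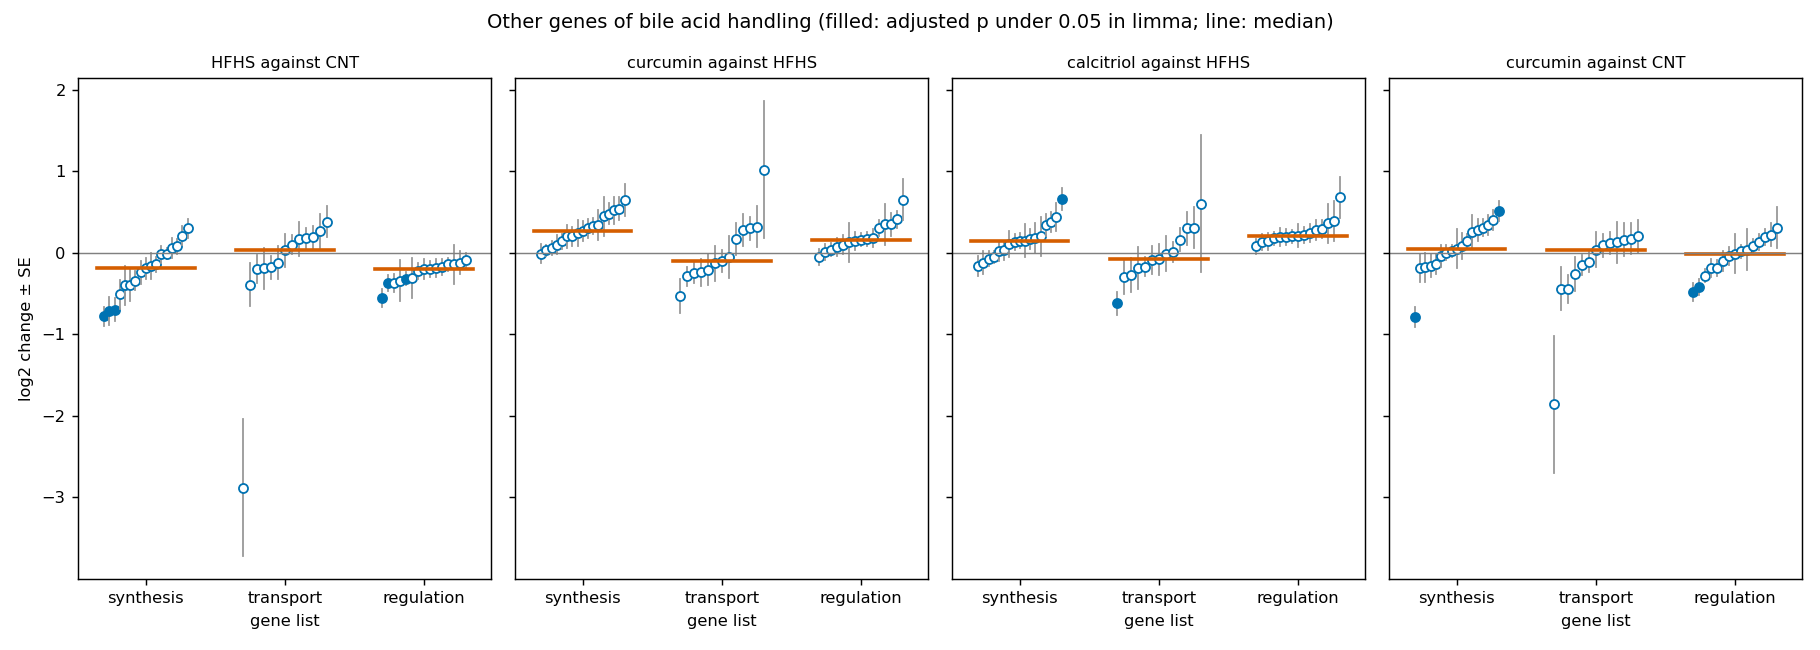
Log2 change ± SE (y axis) of the tested genes of the wider list, by function (x axis), in 4 comparisons; filled points passed an adjusted p of 0.05 in limma and the orange line is the median. In HFHS against CNT the synthesis and regulation medians are -0.19 and -0.20, and in curcumin against HFHS they are 0.27 and 0.16.

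The treatments were compared directly, curcumin against calcitriol. No gene passed in limma, of the 10 or of all tested (0.0%), with 3 of 10 at an unadjusted p under 0.05, against 14.8% of tested genes. The 3 were Nr0b2 (-0.92), Cyp8b1 (1.57) and Abcb11 (-0.26), each with no overlap between the groups, as for 28.7% of tested genes. The intervals of the other 7 members included 0 and ran at most from -0.37 to 0.79, that of Cyp7a1. Of the wider list 0 of 45 passed in limma, with 7 at an unadjusted p under 0.05. The smallest p was that of Ephx1 in the transport list (0.53 ± 0.14, adjusted p = 0.208), of Cyp2c70 in the synthesis list (-0.39 ± 0.12, adjusted p = 0.227) and of Nr5a2 in the regulation list (-0.16 ± 0.08, adjusted p = 0.349).

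Genes whose levels followed those of the leading members most closely over the 12 libraries were named by Pearson's r among all tested genes, as a description. For Abcb11 they were Csrnp1 (r = 0.972), Jade1 (0.947) and Pikfyve (0.93), and within groups, after group means were removed, r was 0.867, 0.635 and 0.568. For Nr0b2 they were Svil (0.841), Zfp36 (0.82) and Tbl1x (0.819), with 0.657, 0.673 and 0.10 within groups. For Cyp8b1 they included Rnf167 (0.935) and Echs1 (0.93), with 0.928 and 0.89 within groups. Libraries share their group and any difference in quality, so these values are no evidence of a link between genes.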

How the data were processed

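RNA was measured in 12 liver libraries, 4 groups of 3 taken from the sample titles. Each library came as a table of 45792 Ensembl identifiers with deposited log2 values. Per the submitters' processing notes, STAR 2.4.0d, DESeq2 1.8.1 and build GRCm38 were used, in roles the notes used here do not state. The transformation, counting and strand setting are not given in the sources used here. Values run from -3.63 to 20.72 and 23411 identifiers are at exactly 0 in all libraries, a pattern of a regularized log2 transformation, which would shrink the changes of low genes. Without counts, no interval for counting error could be computed.

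Symbols, coordinates and exon lengths came from GENCODE M21 (GRCm38). Genes with a log2 value of at least 3.32 (log2 of 10) in at least 3 libraries were tested, 12637 in all, with limma 3.58.1 in R 4.3.3: 4 group means over 12 libraries, which share 1 estimate of the spread, 6 contrasts, moderation with trend and robust estimation, two-sided, Benjamini-Hochberg over all genes tested, threshold 0.05. The script was tested on simulated data with 200 changed genes. The 10 genes, the wider list, the markers and the filter were chosen with earlier results of these data known. All 10 members are given. Of the wider list the text names called genes, up to 4 per function with the smallest p, or else the gene with the smallest p, and further values of genes so named. Vdr and Fgf15 were added after their values were seen. For Abcb11, Nr0b2 and Cyp8b1 the text names genes from the 3 with the highest correlation to each, of which 1 is not reported here. Alternatives were other normalization, filters, limma options, 2-group fits, a replicate block and leaving out libraries. Whether replicate numbers pair libraries was checked from the correlation of same-numbered libraries' deviations from their group means: all 3 exceeded 0.1 for HFHS and curcumin (0.16, 0.321 and 0.162) and for calcitriol and CNT (0.205, 0.253 and 0.372), and not for the other 4 pairs of groups. The labels do not say what a number stands for. The counts over the wider list were added to these after the data were seen.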

Additional observations from a re-analysis of the deposited data

How the results depend on the processing

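Over the 10 genes, 6 comparisons and their alternatives, 706 log2 changes kept direction and side of the threshold, 24 newly passed, 29 no longer passed and 51 changed sign. The counts of calls moved by more than 1.5 times as follows, where the cause was not tested. For HFHS against CNT, members called went from 3 to 0 with only the 2 groups compared, to 5 with a replicate block and to 0 without HFHS replicates 1 and 3, and genes called went from 1505 to 13 with only the 2 groups and to 68 without those libraries. For curcumin against HFHS, members went from 0 to 1 with a filter on a mean of at least 4, to 2 under quantile normalization and to 3 with the replicate block, and genes from 38 to 122 with that filter, 74 with no filter, 168 under quantile normalization, 242 with the block, 0 with only the 2 groups and 0 without HFHS replicates 1 and 3. For calcitriol against HFHS, members went from 0 to 1 under quantile normalization and to 1 with the block, and genes from 279 to 430 under quantile normalization, 0 with only the 2 groups and 4 without HFHS replicates 1 and 3. For curcumin against calcitriol, genes went from 0 to 214 with only the 2 groups. For calcitriol against CNT, members went from 2 to 1 with median centring, with no filter and under quantile normalization, and genes from 511 to 328 with no filter. Where HFHS replicates 1 and 3 were left out, the fit takes the spread of the other groups for the single HFHS library.

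Leaving out 1 library at a time gave 1 to 5 members and 135 to 3717 genes for HFHS against CNT, 0 to 7 and 0 to 3207 for curcumin against HFHS, 0 to 3 and 4 to 2194 for calcitriol against HFHS, 1 to 2 and 94 to 949 for curcumin against CNT, and 0 to 1 and 73 to 609 for calcitriol against CNT. For curcumin against calcitriol it gave 0 members and 0 genes each time. With the replicate block, 1862, 242, 280, 0, 416 and 627 genes passed in HFHS against CNT, curcumin against HFHS, calcitriol against HFHS, curcumin against calcitriol, curcumin against CNT and calcitriol against CNT. Over all pairs of groups the deviations of same-numbered libraries correlated at -0.383 to 0.372, and every pair exceeded 0.1 only for HFHS with curcumin and for calcitriol with CNT. In the first of these the block brought in calls of Nr1h4, Cyp27a1 and Nr0b2, and in the second it changed no call among the 10 genes.

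None of the changes of sign concerned a called gene. Under quantile normalization the log2 change became 0.17 for Cyp7a1, 0.02 for Cyp8b1 and 0.09 for Slco1b2 in HFHS against CNT, -0.0037 for Abcb4 and -0.03 for Nr1h4 in curcumin against calcitriol, 0.06 for Slc10a1 and 0.003 for Nr1h4 in curcumin against CNT, and 0.06 for Abcb4 and 0.04 for Nr1h4 in calcitriol against CNT. Without HFHS replicates 1 and 3 it became 0.28 for Cyp7a1, 0.71 for Cyp8b1, 0.12 for Slco1b2 and 0.11 for Nr0b2 in HFHS against CNT, -0.02 for Cyp7a1 and -0.03 for Cyp7b1 in curcumin against HFHS, and -0.23 for Cyp7a1, -0.23 for Cyp7b1, -0.13 for Slc10a1, -0.03 for Slco1b2 and -0.12 for Nr0b2 in calcitriol against HFHS. Leaving out 1 library gave, in HFHS against CNT, -0.29 to 0.13 for Cyp7a1, -0.52 to 0.24 for Cyp8b1, -0.35 to 0.02 for Slco1b2 and -0.10 to 0.04 for Nr0b2. In calcitriol against HFHS it gave -0.12 to 0.37 for Cyp7a1, -0.64 to 0.20 for Cyp8b1, -0.17 to 0.20 for Cyp7b1 and -0.16 to 0.17 for Nr0b2, and in curcumin against calcitriol -0.02 to 0.47 for Cyp7a1. In curcumin against CNT it gave -0.06 to 0.06 for Abcb4, -0.09 to 0.09 for Slc10a1 and -0.07 to 0.05 for Nr1h4. In calcitriol against CNT it gave -0.20 to 0.29 for Cyp7a1, -0.75 to 0.09 for Cyp8b1, -0.04 to 0.17 for Slco1b2, -0.11 to 0.01 for Nr1h4 and -0.19 to 0.15 for Nr0b2. With 3 libraries a group and depth unknown, small changes were not detectable.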
